A study of Mus musculus with 6 samples.

Results

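The thrombospondins and their 2 best known receptors were followed in RNA from the mouse retina after deletion of Smad4 from the endothelium. The group held 6 genes of the 24421 in the count table: Thbs1, Thbs2, Thbs3, Thbs4, Cd36 and Cd47. The genes were matched by symbol and all 6 were found. The group was chosen on the level of Thbs1 in this same comparison of genotypes, which earlier work on these libraries had shown to be higher in Smad4-iECKO. The difference in Thbs1 is therefore given as a description. Counts of calls that include Thbs1 stand only beside the share over all genes, and support nothing.

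Libraries came from isolated retinal endothelial cells of mice on a mixed BL6/CD1 background. Tamoxifen was given on postnatal day 1 and tissue was taken on postnatal day 7. Both groups carried floxed Smad4, the gene for the SMAD that BMP and TGF-beta receptors share. The 3 Smad4-iECKO libraries also carried Cdh5-CreERT2, a Cre recombinase that tamoxifen activates and an endothelial promoter drives, and the 3 Smad4f/f libraries had no Cre. Whether a library came from 1 pup or from several, and how the cells were isolated, was not given in the sources used here. Sample titles began with Lit38 for 4 libraries, 2 per group (replicates 1 and 3), and with Lit40 for 2 libraries, 1 per group (replicate 2 of each). The labels do not explain these prefixes, called prefix 38 and prefix 40 here.

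Thrombospondins are large, calcium-binding glycoproteins that cells secrete into the matrix. Thrombospondin-1 and thrombospondin-2 form trimers and carry type 1 repeats, through which they bind CD36 on microvascular endothelial cells and restrain the growth of vessels. Thrombospondin-3, thrombospondin-4 and COMP form pentamers and lack these repeats. The carboxy-terminal part of thrombospondin-1 binds CD47, through which it inhibits nitric oxide signalling, and thrombospondin-1 also activates latent TGF-beta. Platelets, macrophages and astrocytes are known sources of thrombospondin-1 besides the endothelium.

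Total counts were between 12633018 and 23164952 in 5 libraries and 2233360 in Smad4-iECKO replicate 2. A count of 3, taken as the floor of detection, was worth 1.39 CPM (counts relative to library size, scaled by TMM) in that shallow library and 0.123 to 0.239 CPM in the others. This floor and the intervals below cover counting error only. Smad4 itself, counted over the whole gene, was at 109.5 to 157.5 CPM in Smad4f/f and 93.9 to 133.9 CPM in Smad4-iECKO, so the groups overlapped. The floxed exons are not named in the labels, and this count over the whole gene does not check the genotypes. A list of 16 endothelial markers, led by Kdr and Cldn5, was present in every library, with a summed level of 1439 to 7379 CPM in Smad4f/f and 2564 to 5326 CPM in Smad4-iECKO. In bulk RNA of this kind, fewer cells of a type and less RNA per cell cannot be told apart.

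Thbs1 was the member with separate groups. Its gene (ENSMUSG00000040152.8) lies on the plus strand of chromosome 2 at 118111876 to 118127133 (GRCm38, GENCODE M21). An antisense lincRNA gene, Gm29233, which the count table does not list, shares 208 exonic bases with it. Smad4f/f replicates 1, 2 and 3 held 15.6, 8.19 and 10.4 CPM of Thbs1 (198, 199 and 139 counts). Smad4-iECKO replicates 1, 2 and 3 held 55.2, 62.3 and 80.4 CPM of Thbs1 (993, 134 and 1008 counts). Every Smad4-iECKO library lay above every Smad4f/f library, and the lowest Smad4-iECKO level was 3.53 times the highest Smad4f/f level. The means were 65.9 ± 13.0 against 11.4 ± 3.81 CPM (SD, n = 3 each), a 5.78-fold difference.

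The spread of Thbs1 within a group was small beside that distance. The highest library exceeded the lowest by 1.46 times among Smad4-iECKO and by 1.91 times among Smad4f/f. In the shallow Smad4-iECKO replicate 2 the exact Poisson interval (95%) of the Thbs1 level ran from 52.2 to 73.8 CPM, clear of the highest Smad4f/f interval, which ended at 17.9 CPM. In prefix 38 the ratio of mean Thbs1 levels was 5.21, and in prefix 40, with 1 library per group, the ratio was 7.61. The fitted log2 fold change of Thbs1 by edgeR was 2.54 (SE 0.36), and 2.55 without Smad4-iECKO replicate 2. Of the 14362 tested genes, 20 had a higher fitted log2 fold change than Thbs1.

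Counts of calls among the members are listed here beside those over all genes. At an adjusted p under 0.05 edgeR's quasi-likelihood test called 0 of the 5 members it tested, and 0% of all tested genes. An unadjusted p under 0.05 was reached by 1 of these 5 members, Thbs1, and by 188 genes or 1.31% of all tested. DESeq2 on the same 6 libraries called 1 member, Thbs1, against 0.0705% of genes with an adjusted p. Voom with sample quality weights, in limma, also called Thbs1 alone of the members, against 0.0557% of tested genes. Groups that did not overlap, in either direction, were seen in 5.31% of tested genes, 2.49% with Smad4-iECKO higher and 2.83% with it lower. Since Thbs1 was chosen from this contrast, these counts are no test of it and nothing is read from them.

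**Figure D1:**
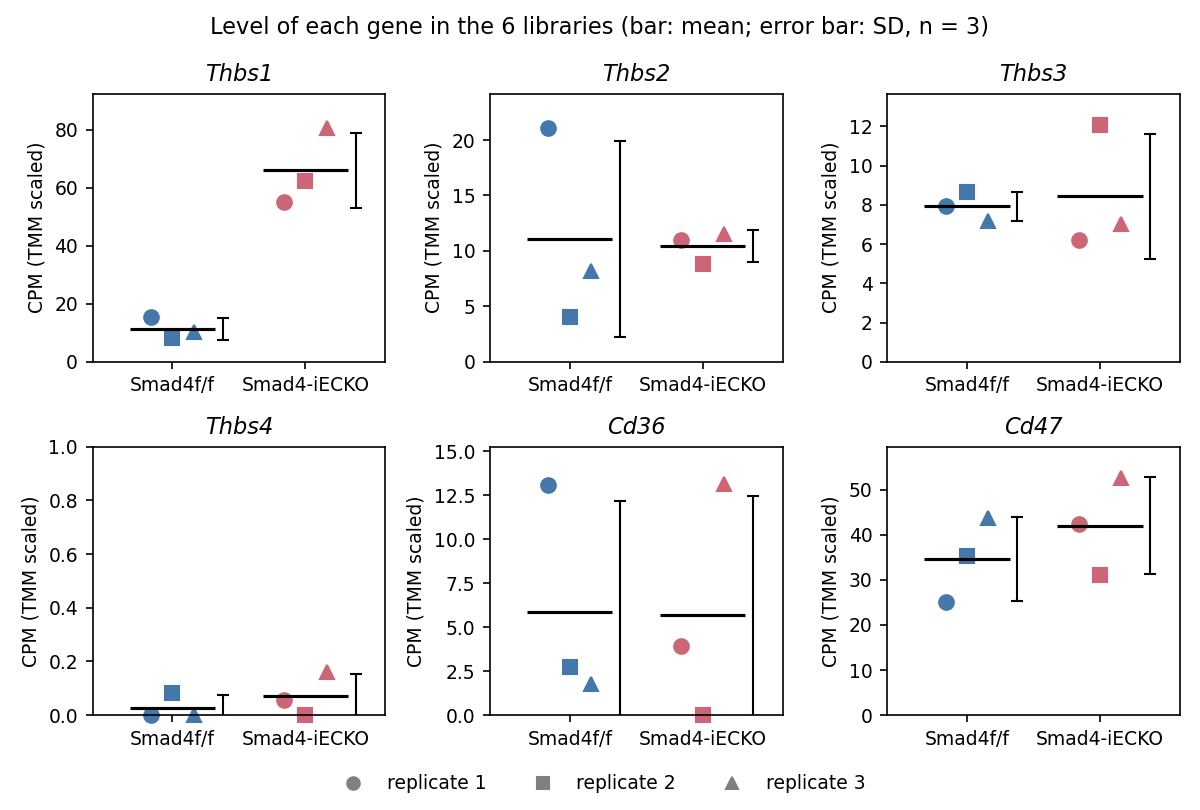
Level of each of the 6 genes in TMM-scaled CPM (vertical axes, each starting at 0) by group; points are libraries (circle, square and triangle for replicates 1, 2 and 3), horizontal bars are means and error bars SD (n = 3), with the lower arms for Thbs4 and Cd36 ending at the axis where they would pass below 0. Thbs1 is between 55.2 and 80.4 CPM in Smad4-iECKO and between 8.19 and 15.6 CPM in Smad4f/f, and in the other 5 panels the groups overlap.

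Thbs2, on the minus strand of chromosome 17 (14665500 to 14694235), encodes thrombospondin-2, the closest relative of thrombospondin-1 and also an inhibitor of angiogenesis. Smad4f/f replicates 1, 2 and 3 held 21.1, 4.07 and 8.15 CPM of Thbs2, and the Smad4-iECKO libraries held 11.0, 8.83 and 11.6 CPM in that order. All Smad4-iECKO levels fell inside the Smad4f/f range, where replicate 1 was 5.17 times replicate 2. The means were 10.5 ± 1.44 against 11.1 ± 8.86 CPM (SD, n = 3), and the log2 fold change was -0.07 (SE 0.59). Without Smad4f/f replicate 1 the log2 fold change of Thbs2 was 0.79.

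Smad4f/f replicate 1 was the library highest in Thbs2 and also in mural and endothelial markers. The 11 pericyte and smooth muscle markers, led by Rgs5 and Notch3, summed to 2866 CPM there, while Smad4f/f replicates 2 and 3 held 625.0 and 1441 CPM of them. The same markers summed to 1118, 2075 and 1642 CPM in Smad4-iECKO replicates 1, 2 and 3. The part of these cells in the Thbs2 level was not tested.

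Thbs3, on the plus strand of chromosome 3 (89215180 to 89226837), encodes a pentameric thrombospondin of skeletal and other tissues. Smad4f/f replicates 1, 2 and 3 held 7.96, 8.64 and 7.18 CPM of Thbs3. Smad4-iECKO replicates 1, 2 and 3 held 6.22, 12.1 and 7.02 CPM of Thbs3. The high value belonged to the shallow library, where it rested on 26 counts with an exact Poisson interval (95%) of 7.89 to 17.7 CPM. The means were 8.44 ± 3.18 against 7.93 ± 0.73 CPM (SD, n = 3), and the log2 fold change was 0.05 (SE 0.45). Without Smad4-iECKO replicate 2 it was -0.29. Mtx1, a gene of the mitochondrial outer membrane on the opposite strand, overlaps the whole span of Thbs3 and shares 318 exonic bases with it. Whether reads were counted by strand was not given in the sources used here, so reads from those bases may belong to either gene. Mtx1 was at 16.6 ± 3.03 against 21.1 ± 9.26 CPM (SD, n = 3).

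Thbs4 (minus strand of chromosome 13, 92751590 to 92794818), the thrombospondin of tendon, muscle and injured tissue, was barely detected. Smad4f/f replicates 1, 2 and 3 held 0, 2 and 0 counts, and Smad4-iECKO replicates 1, 2 and 3 held 1, 0 and 2. All 6 were at or under the floor of 3 counts. Thbs4 was the 1 member left out by the filter on low counts, and no fold is given. Comp, the fifth family gene, is no member but was listed as a relative. It was at 10, 21 and 18 counts in Smad4f/f and 14, 0 and 6 counts in Smad4-iECKO. Its CPM was lower in every Smad4-iECKO library, but by a narrow margin, 0.778 against 0.788 CPM for the nearest pair. The 0 came from the shallow library, where the floor of 3 counts is worth 1.39 CPM. All Smad4f/f levels of Comp, 0.788 to 1.35 CPM, lay under that floor, so this 0 cannot show a lower level.

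Per exon length, Thbs1 was one of several thrombospondin transcripts of like level in Smad4f/f and by far the highest in Smad4-iECKO. Levels were divided by the union of exons of each gene in GENCODE M21, which need not be the annotation the authors counted on. In Smad4f/f the means were 1.88 ± 0.63 CPM per kb for Thbs1, 1.58 ± 1.27 for Thbs2 and 1.64 ± 0.15 for Thbs3 (SD, n = 3), and these neighbours did not differ beyond their spread. In Smad4-iECKO they were 10.9 ± 2.14 CPM per kb for Thbs1, 1.49 ± 0.21 for Thbs2 and 1.75 ± 0.66 for Thbs3 (SD, n = 3). Thbs4 was lowest, at 0.00834 ± 0.0144 and 0.0218 ± 0.0246 CPM per kb in Smad4f/f and Smad4-iECKO (SD, n = 3).

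Thbs1 made up 35.6%, 36% and 39.2% of the summed length-scaled level of Thbs1 to Thbs4 in Smad4f/f replicates 1, 2 and 3. Its share was 75.9%, 73.1% and 80.8% in Smad4-iECKO replicates 1, 2 and 3. The shares did not overlap, and their means differed by 39.7 percentage points. A share of this kind is free of the scaling between libraries. The other thrombospondins together were at 4.66, 2.40 and 2.65 CPM per kb in Smad4f/f and at 2.88, 3.77 and 3.15 CPM per kb in Smad4-iECKO (replicates 1, 2 and 3), with overlapping groups. Thbs1 alone was at 2.57, 1.35 and 1.71 CPM per kb and at 9.08, 10.3 and 13.2 CPM per kb in the same order, without overlap. No sequence of 50 bases was shared between the annotated transcripts of any of the 6 members or Comp.

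**Figure D2:**
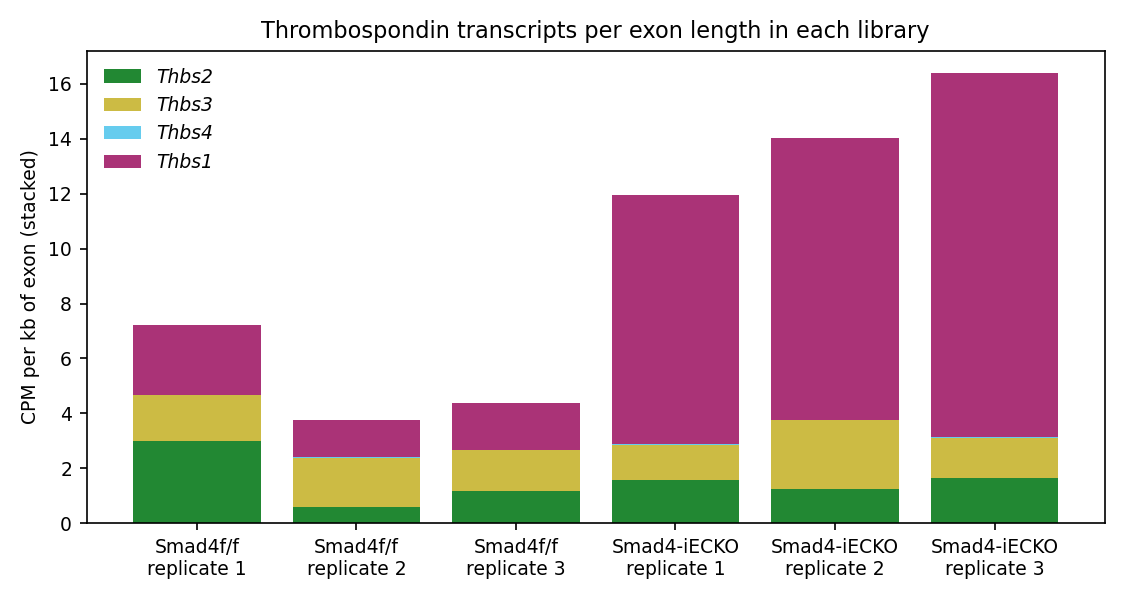
Stacked level of Thbs2, Thbs3, Thbs4 and Thbs1 in CPM per kb of exon (vertical axis) for each of the 6 libraries (horizontal axis). The Thbs1 segment takes 35.6% to 39.2% of the stack in Smad4f/f and 73.1% to 80.8% in Smad4-iECKO, while the segments below it overlap between the groups.

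Cd36, on the minus strand of chromosome 5 (17781690 to 17888801), encodes the scavenger receptor and fatty acid transporter through which type 1 repeats reach microvascular endothelium. Smad4f/f replicates 1, 2 and 3 held 13.1, 2.76 and 1.80 CPM of Cd36 (166, 67 and 24 counts). Smad4-iECKO replicates 1, 2 and 3 held 3.94, 0 and 13.2 CPM of Cd36 (71, 0 and 165 counts). The value of 0 came from the shallow library, where the floor of 3 counts is worth 1.39 CPM and the exact Poisson interval (95%) of a count of 0 ends at 1.71 CPM. One library in each group was near 13 CPM and the others were at 3.94 CPM or less, so the groups overlapped.

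The mean levels of Cd36 were 5.70 ± 6.75 against 5.88 ± 6.26 CPM (SD, n = 3; Smad4-iECKO first, as in all such pairs). The log2 fold change was 0.05 (SE 1.08). Single libraries decided its sign, which was positive at 1.40 without Smad4f/f replicate 1 and negative at -1.31 without Smad4-iECKO replicate 3. Both libraries near 13 CPM were also the highest of their group in Thbs1 and in the 7 astrocyte markers. Those markers, led by Pdgfra and Gfap, summed to 399.2 CPM in Smad4f/f replicate 1 and 696.6 CPM in Smad4-iECKO replicate 3, against 100.3 to 262.9 CPM in the other 4 libraries. In Smad4f/f replicate 1, Pdgfra, Gfap and S100b were the highest of the group. Pax2, Aldh1l1 and Aqp4 were the lowest, at 1.73, 0.473 and 0.788 CPM, and Gjb6 was at 0 in every library. The endothelial sum was also highest in Smad4f/f replicate 1, at 7379 CPM. Among Smad4-iECKO it was highest in replicate 2, at 5326 CPM, with replicate 3 at 4177 CPM. There the list was split. Cdh5 (566.1 CPM), Pecam1 (392.6 CPM), Flt1 (252.7 CPM), Emcn (51.2 CPM) and Eng (515.0 CPM) were highest of the group in Smad4-iECKO replicate 3. The rest of the 16 markers, Kdr and Cldn5 among them, were highest in Smad4-iECKO replicate 2. The part of other cells in the Cd36 level was not tested.

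Cd47 (plus strand of chromosome 16, 49800533 to 49915010) encodes the widely expressed receptor that also signals to phagocytes through SIRPA. Smad4f/f replicates 1, 2 and 3 held 24.99, 35.3 and 43.6 CPM of Cd47, and the Smad4-iECKO libraries held 42.3, 31.1 and 52.5 CPM in that order. The groups overlapped, with means of 42.0 ± 10.7 against 34.7 ± 9.33 CPM (SD, n = 3) and a log2 fold change of 0.28 (SE 0.34). The 95% exact Poisson intervals of the libraries at 24.99 and 43.6 CPM, both Smad4f/f, did not meet, so Cd47 differed between replicates by more than counting error. Per kb, Cd47 was the highest member in all 3 Smad4f/f libraries and second to Thbs1 in all 3 Smad4-iECKO libraries.

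Relative to endothelial transcripts, Thbs1 did not overlap between the groups, which is a description, since Thbs1 was chosen from this contrast. Its level as a percentage of the summed CPM of the 16 endothelial markers was 0.212%, 0.569% and 0.236% in Smad4f/f replicates 1, 2 and 3. It was 2.15%, 1.17% and 1.92% in Smad4-iECKO replicates 1, 2 and 3. The ratio of the means was 5.16, and the lowest Smad4-iECKO value was 2.05 times the highest Smad4f/f value. With libraries scaled to this list, the edgeR log2 fold change of Thbs1 was 2.37, with an SE of 0.94 against 0.36 under TMM. The other 5 members overlapped on this scale. Cd47, for example, ran from 0.339% to 2.46% in Smad4f/f and from 0.585% to 1.65% in Smad4-iECKO.

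The summed level of microglia and macrophage transcripts was higher in Smad4-iECKO, as was Thbs1. The 16 markers of that list, led by Csf1r and Cx3cr1, summed to 62.9, 37.98 and 67.3 CPM in Smad4f/f replicates 1, 2 and 3. They summed to 94.5, 81.8 and 122.5 CPM in Smad4-iECKO replicates 1, 2 and 3, above every Smad4f/f library. Of the 16 markers 5 were separately higher in all Smad4-iECKO libraries, against 2.49% of all tested genes. The margin was narrow for Tmem119 (0.797 against 0.788 CPM), Trem2 (1.91 against 1.87 CPM) and C1qb (5.50 against 5.31 CPM), as lowest Smad4-iECKO against highest Smad4f/f. By the same measure it was wider for C1qc (8.66 against 6.62 CPM) and Itgam (5.44 against 3.37 CPM). Log2 fold changes were positive for 14 of the 15 tested markers, against 48.2% of all tested genes, and edgeR called 0. Neither leading gene had separate groups. In the shallow Smad4-iECKO replicate 2, Cx3cr1 was at 3.72 CPM, below the 5.60 to 8.68 CPM of Smad4f/f. It was at 15.8 and 17.0 CPM in Smad4-iECKO replicates 1 and 3. Csf1r was at 17.2 CPM in the shallow library, against 17.9 CPM in Smad4f/f replicate 3. P2ry12, C1qa, Mrc1 and Fcgr1 were at 0 in the shallow library, where the floor of 3 counts is worth 1.39 CPM. Fcgr1 was under that floor in every Smad4f/f library and Mrc1 in Smad4f/f replicates 2 and 3, so their 0 shows little. P2ry12 and C1qa were above it in every Smad4f/f library. The part of these cells in the Thbs1 level was not tested. The astrocyte, endothelial, pericyte, fibroblast, Mueller glia, pigment epithelium, platelet and erythroid lists overlapped between the groups.

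The 11 platelet markers summed to 12.6 to 15.3 CPM in Smad4f/f and 13.4 to 44.6 CPM in Smad4-iECKO. Most of that sum came from Gp1bb and Itga2b, and the value of 44.6 CPM belonged to the shallow library. These 2 genes were the tested ones of the list, and both had positive log2 fold changes. Pf4, the platelet chemokine gene, was at 12, 2 and 3 counts in Smad4f/f and 2, 0 and 2 counts in Smad4-iECKO. Ppbp was at 7, 0 and 11 counts and at 0, 0 and 6 counts in the same order. Gp1ba, a subunit of the platelet receptor for von Willebrand factor, was higher in Smad4-iECKO replicates 1 and 3, at 10, 0 and 11 counts against 3, 1 and 0 counts in Smad4f/f. Clec1b was at 4, 0 and 2 counts against 0 in every Smad4f/f library. The part of platelets in the Thbs1 level was not tested.

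**Figure D3:**
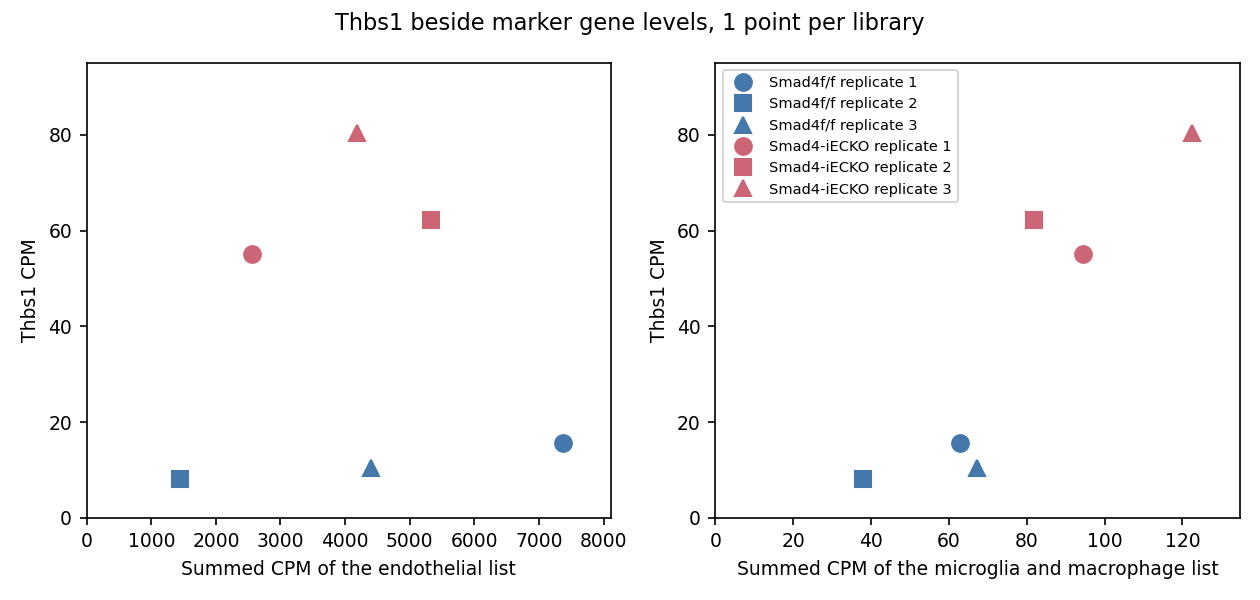
Thbs1 level in CPM (vertical axes) against the summed CPM of 16 endothelial markers (left) and of 16 microglia and macrophage markers (right), 1 point per library. The Smad4-iECKO points lie above the Smad4f/f points at overlapping endothelial sums, from 2564 to 5326 CPM against 1439 to 7379 CPM, and to the right of them in the microglia and macrophage sum.

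Other genes of the pathway were taken from 9 lists, 82 genes in all without the members, of which 76 were tested. At an adjusted p under 0.05 edgeR called 0 of them, as for all genes, and 6 had an unadjusted p under 0.05, against 188 or 1.31% of all tested genes. Positive log2 fold changes were seen for 47 of the 76 (median 0.15), against 6923 of 14362 tested genes (median -0.02). Without the shallow Smad4-iECKO replicate 2, 41 of 76 were positive (median 0.02), against 6389 of all 14362 (median -0.04). The groups did not overlap for 6 of the 76, 5 higher and 1 lower, or 7.89%, against the 5.31% of all tested genes. The 1 lower was Comp, whose level in every library was under the floor of the shallow library.

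Among 15 further receptors of thrombospondins, 9 had positive and 6 negative log2 fold changes (median 0.17), and edgeR called 0. Itgb3 encodes the beta3 subunit of the vitronectin receptor, an integrin that binds the RGD site of thrombospondin-1. It was at 17.3, 3.74 and 10.02 CPM in Smad4f/f and at 19.0, 22.8 and 32.1 CPM in Smad4-iECKO (replicates 1, 2 and 3). It was higher in every Smad4-iECKO library, narrowly so against Smad4f/f replicate 1, with a log2 fold change of 1.26 (SE 0.54). Lrp1, the endocytic receptor that clears thrombospondin-1, was at 713.4 ± 333.1 against 429.1 ± 132.0 CPM (SD, n = 3), with overlapping groups. The CD36 relatives Scarb1 (122.0 ± 28.3 against 157.4 ± 18.7 CPM) and Scarb2 (136.4 ± 15.9 against 127.1 ± 12.7 CPM) overlapped too (SD, n = 3). So did Sirpa, the CD47 counter-receptor, at 155.1 ± 14.7 against 162.2 ± 35.5 CPM.

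Of 13 genes that act downstream of CD36 and CD47, 4 were positive and 9 negative (median -0.12), with 0 called. The smallest unadjusted p values in this list belonged to Yes1, a Src family kinase, and Ptpn6, the phosphatase SHP-1 of blood cells. Yes1 was at 99.3 ± 14.1 against 134.6 ± 64.8 CPM and Ptpn6 at 2.73 ± 1.47 against 1.66 ± 0.97 CPM (SD, n = 3), and both overlapped. Of 9 tested matrix and protease partners 7 were positive (median 0.17). The smallest unadjusted p values belonged to Mmp2 and Tgfb1. The gelatinase gene Mmp2 was at 40.5 ± 10.2 against 28.2 ± 5.06 CPM (SD, n = 3). Tgfb1, whose latent product thrombospondin-1 activates, was at 26.0, 8.72 and 36.5 CPM in Smad4f/f and 20.1, 70.7 and 41.1 CPM in Smad4-iECKO (replicates 1, 2 and 3), also overlapping.

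Genes that TGF-beta is known to induce had the highest median of the 9 lists. Of 7 tested, 6 were positive (median 0.95, and 0.85 without Smad4-iECKO replicate 2), and edgeR called 0. Ctgf, a matricellular growth factor gene, was at 70.9, 21.2 and 20.7 CPM in Smad4f/f and 67.2, 118.5 and 133.3 CPM in Smad4-iECKO (replicates 1, 2 and 3). The groups met at Smad4f/f replicate 1, and the log2 fold change was 1.499 (SE 0.53). Col1a1, a fibrillar collagen gene, was higher in all 3 Smad4-iECKO libraries at 9.22, 40.4 and 8.13 CPM, against 6.47, 2.22 and 5.69 CPM in Smad4f/f. The library at 40.4 CPM was again the shallow one. The 8 fibroblast markers include Col1a1 and are led by Pdgfra and Col3a1 over all libraries. They summed to 813.4 CPM in the shallow library, against 124.4 to 583.1 CPM in the other 5 libraries. Col3a1 (392.3 CPM) and Col1a2 (294.7 CPM) were the largest parts of that sum. Pdgfra (67.4 CPM) and Fbln1 (7.44 CPM) lay there within the range of the other libraries. Mgp was lowest there, at 11.2 CPM, and Dcn and Lum were at 0. The part of fibroblasts in the Col1a1 level was not tested.

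Genes of other secreted inhibitors of angiogenesis included 4 positive and 2 negative of 6 tested (median 0.47). Col15a1 and Col18a1, the collagens whose fragments are restin and endostatin, led them. Col15a1 was at 138.6, 57.7 and 127.3 CPM in Smad4f/f and 151.2, 623.3 and 275.1 CPM in Smad4-iECKO (replicates 1, 2 and 3). Col18a1 was at 852.5, 213.9 and 502.6 CPM and at 742.1, 3155 and 1239 CPM in the same order. Both were highest in the shallow library, and Col18a1 overlapped between the groups.

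Genes that share the type 1 repeat with thrombospondin-1 were positive in 13 of 14 tested (median 0.41), but in 8 of 14 without Smad4-iECKO replicate 2 (median 0.16). Spon1, the gene of a floor plate matrix protein, was at 142.8 ± 24.8 against 99.2 ± 28.4 CPM, and Sema5b, a semaphorin gene, at 168.7 ± 80.6 against 107.2 ± 38.7 CPM (SD, n = 3). No gene of this list had separate groups.

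Of 9 transcriptional regulator genes reported to act on Thbs1, 4 were positive and 5 negative (median -0.12), with 0 called. Without Smad4-iECKO replicate 2, 2 of 9 were positive (median -0.14). Jun was at 105.2, 120.2 and 124.2 CPM in Smad4f/f and at 138.3, 242.6 and 136.3 CPM in Smad4-iECKO (replicates 1, 2 and 3). It was higher in every Smad4-iECKO library, by 136.3 against 124.2 CPM for the nearest pair, with a log2 fold change of 0.56 (SE 0.32). The value of 242.6 CPM belonged to the shallow library. Wwtr1, which encodes TAZ, was at 150.3 ± 54.3 against 250.4 ± 182.3 CPM (SD, n = 3), with overlapping groups.

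**Figure D4:**
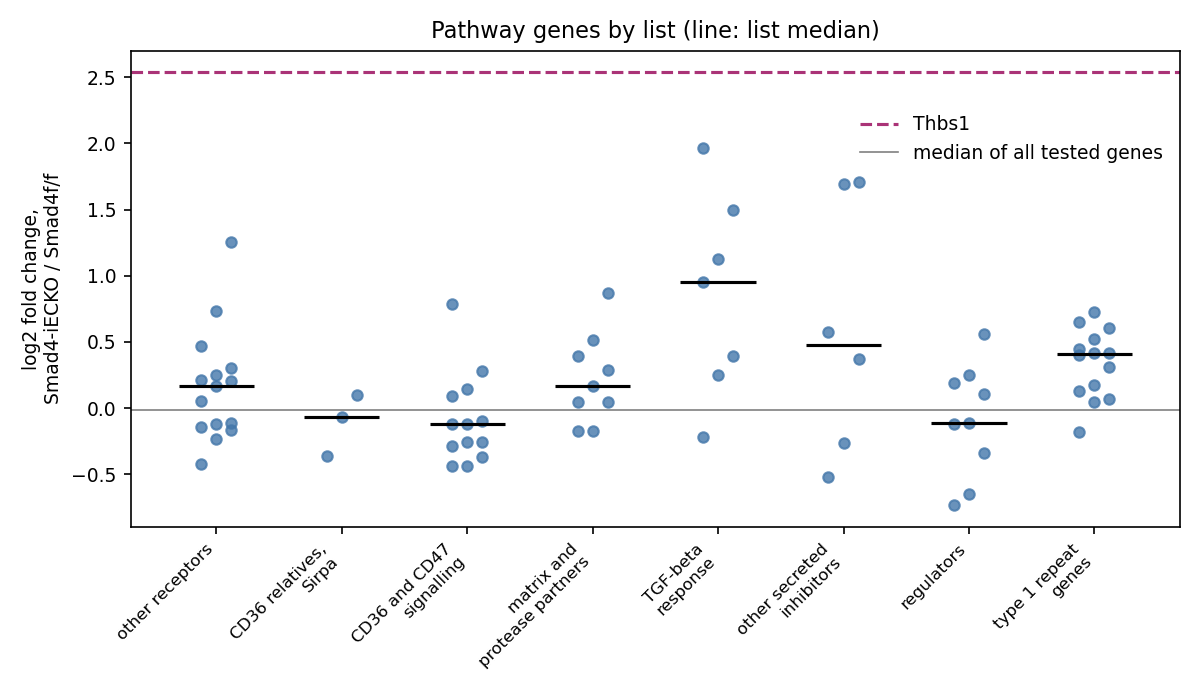
Log2 fold change of Smad4-iECKO over Smad4f/f by edgeR (vertical axis) for the tested genes of 8 pathway lists; points are genes, black lines list medians, the grey line the median of all tested genes (-0.02) and the dashed line Thbs1 (2.54). List medians run from -0.12 to 0.95, and every plotted gene lies below Thbs1.

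The genes whose pattern over the 6 libraries was most like that of Thbs1 were Itgb4, Phlda3, Angpt2, Cd300lg and Esm1. Likeness was the root mean square difference of log2(CPM + 0.5), each gene centred on its own mean. It was 0.352 for Itgb4, 0.357 for Phlda3, 0.363 for Angpt2 and Cd300lg and 0.392 for Esm1, against a median of 1.37 over 14361 genes. The measure rewards a difference between genotypes like that of Thbs1, so these genes share with it the contrast by which Thbs1 was chosen. Itgb4 is an integrin subunit of hemidesmosomes, Phlda3 a p53-induced inhibitor of AKT, and Angpt2 and Esm1 are secreted by sprouting endothelium. Cd300lg, an adhesion receptor gene of capillaries and venules, was low, at 0.315, 0.041 and 0 CPM in Smad4f/f and at 1.06, 2.79 and 2.79 CPM in Smad4-iECKO (replicates 1, 2 and 3). The other members differed from Thbs1 by 1.22 for Cd47 (rank 2472 of 14361), 1.23 for Thbs2 (rank 2736), 1.31 for Thbs3 (rank 5393) and 2.12 for Cd36 (rank 13890). A gene with the same level in all 6 libraries would differ by 1.29.

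For Thbs1, the authors' deposited table listed a log2 fold change of 2.41 (SE 0.16). The log2 fold changes were 0.29 for Cd47, -0.05 for Thbs2, -0.08 for Thbs3 and -0.01 for Cd36 in the authors' deposited table, with standard errors of 0.15, 0.27, 0.13 and 0.34. Of the 5 members with an adjusted p in the authors' deposited table, 1 was under 0.05, Thbs1, against 13.4% of the genes with an adjusted p there. The deposited counts hold 3 identical columns for each sample. DESeq2 run on all 18 columns gave Thbs1 a standard error of 0.16, and run on each sample once it gave 0.40, with log2 fold changes of 2.55 and 2.54.

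**Figure D5:**
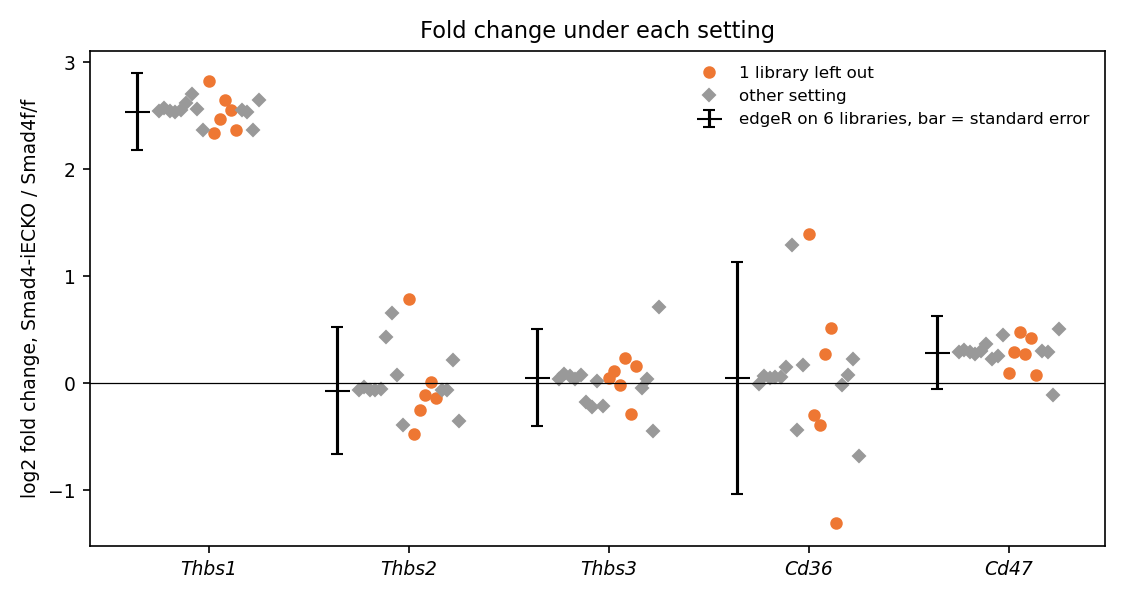
Log2 fold change of Smad4-iECKO over Smad4f/f (vertical axis) for the 5 tested members (horizontal axis); the black bar is edgeR on 6 libraries with its standard error, circles leave out 1 library each and diamonds are the other settings, fits on all 18 columns included. Thbs1 stays between 2.34 and 2.82, while Cd36 runs from -1.31 to 1.40 and Thbs2, Thbs3 and Cd47 reach both sides of 0.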

How the data were processed

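Bulk RNA-seq was analysed from 6 samples. The submitters' processing notes name STAR, DESeq2 and mm10, and no counting tool or annotation is stated in the sources used here. The authors' deposited counts are raw read counts per gene in 18 columns, 3 per sample, which held identical values in all 24421 genes. Each sample entered once, except in fits that say otherwise. The authors' deposited comparison holds a mean normalized signal, log2 fold changes, a test score and p-values per gene, per the file headers.

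Groups came from the genotype label, and replicate numbers follow accession order and pair nothing. Since the labels do not say that samples came from separate animals, p-values reflect only the spread among these samples, which may be technical. Counts were tested with edgeR 4.0.16 (R 4.3.3; quasi-likelihood F-test, TMM, filterByExpr with a minimum count of 10, Benjamini-Hochberg adjusted p under 0.05, 14362 genes). The standard error was the log2 fold change divided by the square root of F. DESeq2 1.42.0 and limma 3.58.1 were alternatives, and scripts were tested on simulated data. The members and lists were chosen with earlier results of these data known. Named genes were the members, up to 2 per pathway list with the smallest unadjusted p, the 5 most like Thbs1, and the top 2 of each marker list discussed. Coordinates are from GENCODE M21. Mtx1, Pf4, Ppbp, Gp1ba, Clec1b, Tmem119, Trem2, C1qb, C1qc, Itgam, P2ry12, C1qa, Mrc1 and Fcgr1 were singled out after their values were seen, as were Spp1 and Ptprv. So were Col1a2, Fbln1, Mgp, Dcn, Lum, S100b, Pax2, Aldh1l1, Aqp4, Gjb6, Cdh5, Pecam1, Flt1, Emcn and Eng. Figures used matplotlib 3.10.9. Markers of neural retina are not reported here.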

Additional observations from a re-analysis of the deposited data

How the results depend on the processing

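Each tested member had 19 alternatives, fits on all 18 columns included. Thbs1 kept a positive log2 fold change in all 19, Cd47 in 18, Cd36 in 12 and Thbs3 in 12. Thbs2 stayed negative in 13. Thbs1 was chosen for its difference in these same libraries, so its count of 19 supports nothing. The exception for Cd47 was scaling to the endothelial list (-0.11). The number of genes past the threshold was 0 by edgeR with upper quartile scaling, DESeq2 size factors, no filter, a minimum count of 30, the title prefix as a block or prefix 38 alone, by limma-voom, and 0 to 0 when each library was left out. Unadjusted, 141 to 603 genes had p under 0.05 in these fits. It was 12 by DESeq2 and 8 by limma-voom with sample quality weights. With all 18 columns entered as samples it was 2235 by DESeq2 and 825 by edgeR (the latter added after seeing the data), where identical columns were counted as replicates. The cause of the difference between tools on the 6 libraries was not tested. The difference in the Thbs1 share was 39.2 percentage points without division by length, and 37.6 to 41.4 with each library left out. Thinned to 2233360 counts per library, Thbs1 was at 35, 16 and 22 counts in Smad4f/f and 140, 134 and 170 counts in Smad4-iECKO. At that depth Thbs3 had 10 to 26 counts and Cd36 0 to 41, which limits what the shallow library can show for these genes.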

Other observations

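The genes most like Thbs1 were also ranked without the shallow Smad4-iECKO replicate 2, a choice made after seeing the data. Phlda3, Itgb4 and Angpt2 were again among the 5 most alike, and Spp1 and Ptprv took the first places. Spp1, which encodes the matrix phosphoprotein osteopontin, was at 12, 4 and 8 counts in Smad4f/f and 49, 0 and 77 counts in Smad4-iECKO (replicates 1, 2 and 3). Ptprv, a receptor phosphatase gene known as a p53 target, was at 10, 3 and 0 counts and at 46, 0 and 51 counts in the same order. Both were at 0 counts in the shallow library, where 3 counts are worth 1.39 CPM, against 2.72 and 6.14 CPM of Spp1 in Smad4-iECKO replicates 1 and 3.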
